A study of Mus musculus with 2 samples.

Results

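T-gated barcodes of the mouse mesentery were described, that is, single-cell barcodes chosen by their transcripts of the CD3 complex. Membership required at least 200 detected genes and at most 10% of UMIs (unique molecular identifiers, each a counted molecule) on mitochondrial genes, and at least 2 UMIs in sum of Cd3e, Cd3d and Cd3g. It also required no UMI of Cd163l1, Actn2 or 5430421N21Rik (genes of a gamma-delta-like T population) and none of the B cell genes Cd79a and Cd79b. The natural killer (NK) genes Ncr1, Klrb1c, Klre1, Klrd1, Gzma and Prf1 had to stay under 3 UMIs in sum, and the fibroblast gene Dcn and the macrophage gene C1qa at 2 UMIs or fewer. This gave 174 barcodes, 102 in library 1 and 72 in library 2, of 3204 in all and of 3143 that passed the gene and mitochondrial limits. The 16 genes of the rule were left out of every test, and what they show is given as description only.

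Both libraries came from untreated male wild-type C57BL/6N mice, 1 mouse per library, whose whole mesenteries had been digested with Liberase DH, a collagenase blend. Single cells were captured with 10x Chromium version 2 chemistry, which counts the 3′ ends of transcripts. No genotype, treatment or time was compared, so the comparisons are between classes of barcodes within the same 2 libraries, and age at harvest was not given. The labels tie each library to a mouse of its own. The fits removed the difference between the 2 mice. With 2 libraries the estimate of spread draws on many genes, so a call does not require that both mice agreed on that gene.

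T cells recognise antigen with a surface receptor whose variable chains pair with the signalling subunits encoded by Cd3e, Cd3d, Cd3g and Cd247. Engagement of the receptor passes through the kinases Lck and Zap70 to the scaffold Lat, and costimulatory receptors such as Cd28 decide how strongly the cell responds. Cd4 and Cd8 split conventional T cells into helper and cytotoxic lineages, and the mesentery, an adipose-rich sheet with lymph nodes and vessels, holds both recirculating and tissue-resident lymphocytes.

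The 3 genes that define membership lie together on chromosome 9 (GRCm38, GENCODE M21). Cd3g runs on the minus strand from 44969572 to 44980431, Cd3d on the plus strand from 44981786 to 44987339, and Cd3e on the minus strand from 44998740 to 45009627. The starts of Cd3g and Cd3d are 1355 bases apart and point away from each other. The 250 bases before each start in RefSeq (GRCm38.p6) are shown because these promoters feed the counts on which every member was chosen. Each is read 5′ to 3′ on its gene's strand, Cd3e from chr9:45009612-45009861, Cd3d from chr9:44981536-44981785 and Cd3g from chr9:44980432-44980681. The Cd3e window reaches past 45009627, the start of that gene in GENCODE. Its last bases, with most of the ETS core nearest the end, therefore lie inside the gene as placed above. Capitals mark exact matches on either strand to AGGAAG (an ETS core), CTTTGA (a TCF/LEF core), CAGGTG (an E-box) or TGTGGT (a RUNX core); no matches overlapped one another.
Cd3e: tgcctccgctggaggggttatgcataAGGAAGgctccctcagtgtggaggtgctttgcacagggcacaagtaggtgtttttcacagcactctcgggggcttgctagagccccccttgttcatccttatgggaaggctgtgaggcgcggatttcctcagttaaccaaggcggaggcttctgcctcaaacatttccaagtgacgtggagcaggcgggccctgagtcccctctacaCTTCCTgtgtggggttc
Cd3d: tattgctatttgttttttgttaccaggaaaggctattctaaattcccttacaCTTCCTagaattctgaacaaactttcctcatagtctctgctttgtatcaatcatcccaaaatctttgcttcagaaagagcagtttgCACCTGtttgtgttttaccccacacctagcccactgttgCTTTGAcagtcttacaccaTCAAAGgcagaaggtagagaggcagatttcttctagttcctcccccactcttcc
Cd3g: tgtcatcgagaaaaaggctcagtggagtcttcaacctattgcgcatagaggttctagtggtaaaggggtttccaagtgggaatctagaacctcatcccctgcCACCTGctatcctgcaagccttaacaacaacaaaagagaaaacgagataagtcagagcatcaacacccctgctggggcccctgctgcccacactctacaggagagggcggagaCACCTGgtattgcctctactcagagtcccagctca
The Cd3e window held 2 ETS cores, the Cd3d window 1 ETS core, 2 TCF/LEF cores and 1 E-box, and the Cd3g window 2 E-boxes. The RUNX core was in none of the 3. Over the 32851 promoter windows of this length in the RefSeq table, 29.5% held the ETS core, 14.0% the RUNX core, 13.8% the TCF/LEF core and 17.2% the E-box. G and C made up 57.2% of the Cd3e window, 41.2% of Cd3d and 51.6% of Cd3g.

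The members were shallow. They held 207338 UMIs in library 1 and 140057 in library 2, with medians of 1804 and 1671 UMIs and 778 and 774 genes per barcode. The other 718 barcodes with a UMI of Ptprc (CD45, the pan-leukocyte phosphatase), 350 and 368, had medians of 3009 and 2663 UMIs. A Ptprc UMI was required of that comparison class but not of the members, of which 102 of 174 had one. No barcode sequence was shared between the libraries, and 1 member was called a doublet by Scrublet.

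Among members and other Ptprc-positive barcodes together, members made up 22.6% in library 1 (95% exact Clopper-Pearson interval 18.8 to 26.7, 102 of 452) and 16.4% in library 2 (13.0 to 20.2, 72 of 440). These intervals cover counting error only. Of all barcodes that passed the first limits, the shares were 6.87% and 4.34%. The threshold on CD3 counts sets these shares, since 54 members had exactly 2 CD3 UMIs, 38 had 3 and 82 had 4 or more, while 63 barcodes met every other condition with exactly 1.

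Values on either side of that threshold are given as a description. Cd28 had a UMI in 35.2% of members with exactly 2 CD3 UMIs, in 36.5% of the 63 barcodes just outside and in 51.2% of members with 4 or more. Gata3, a transcription factor of type 2 lymphocytes, had a UMI in 38.9%, 46.0% and 29.3% of the same sets. Lef1 had one in 20.4%, 12.7% and 17.1%, and Lat in 55.6%, 44.4% and 72.0%. Cd74, a gene of antigen-presenting cells, was at 22.1 CPM in members with exactly 2 and at 752 CPM just outside, with UMIs in 2 barcodes of each set. At the NK limit, 18 barcodes met all other conditions with 3 or more NK-gene UMIs (6 in library 1 and 12 in library 2), so T cells with cytotoxic transcripts may lie outside the gate.

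The CD3 genes themselves were not detected evenly. Cd3g had a UMI in 138 members, Cd3d in 126 and Cd3e in 103. All 3 were seen together in 51 members, and 32 members had UMIs of a single CD3 gene.

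The label was checked against markers that the rule does not use. Cd28, Cd40lg and Lef1 summed to 723 CPM (UMIs scaled to a total of 1000000 per class and library) in members of library 1 and 643 CPM in library 2, against 43.0 and 66.2 CPM in the other leukocytes, and 103 of 174 members had at least 1 such UMI. Markers of neutrophils (6 genes) and adipocytes (6 genes) were at 0 in all members. The 6 B cell markers outside the rule summed to 2 UMIs, 9 macrophage markers to 17, 7 mast cell markers to 3, 7 fibroblast markers to 40 and 7 endothelial markers to 28. The genes of the receptor constant regions, Trac, Trbc1, Trbc2 and Trdc, have no row in the matrix used here, so alpha-beta and gamma-delta receptors could not be read directly.

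Markers of group 2 innate lymphoid cells (ILC2), tissue lymphocytes that lack an antigen receptor, went against the label for part of the members. The 11 ILC2 markers summed to 1920 and 2463 CPM in members, above the 741 and 666 CPM of the other leukocytes, and were spread over 109 barcodes. Counted over Gata3, Il1rl1, Rora, Il5, Il13 and Areg, 66 members had no UMI, 60 had 1 or 2, and 48 (26 and 22 by library) had 3 or more. Dendritic cell markers summed to 404 UMIs, of which 374 lay in 2 members. In library 1, 1 member held 194 UMIs of Cd74, the MHC class II invariant chain, and 79 of H2-Aa among 7087 UMIs; it is the member called a doublet. The members are therefore called T-gated, and counts of calls are also given without the 48, or without the Cd74-rich member, where that moved them by more than 1.5 times.

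Against the other Ptprc-positive barcodes, T-gated barcodes were higher for the genes that carry a signal from the antigen receptor. Lat, the scaffold on which receptor signalling complexes assemble, stood at 651 and 571 CPM in libraries 1 and 2, against 68.4 and 73.9 CPM in other leukocytes. Lck, the kinase that phosphorylates the CD3 chains, stood at 391 and 350 CPM against 46.9 and 61.7. For both genes, which were picked as examples, each T-gated library lay above both libraries of the other class.

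The test was edgeR's quasi-likelihood test on UMI sums per class and library, with the library as a block, and a call means a Benjamini-Hochberg adjusted p under 0.05. Of 6873 genes tested, 576 were higher in T-gated barcodes (8.38%) and 1103 lower (16%), 24.4% in all. A gene that is expressed in T-gated barcodes alone could pass the filter on low counts only through them, so the counts below describe the tested genes. The gene lists overlap, and a gene can count in several. DESeq2's Wald test called 335 of the same 6873, 141 higher and 194 lower, and had fewer calls in most lists below. It called higher 11 of 18 genes of receptor signalling, 8 of 16 of costimulation and 7 of 8 GIMAP genes. The T lineage factors had 6 higher and 1 lower of 18, and the resting list 5 higher and 1 lower of 15. The effector and memory list had 2 higher and 4 lower of 24. In the remaining lists DESeq2 called lower only 2 cytokines and 2 immediate early genes. Of the shorter lists it called higher 1 coreceptor, 2 helper fate factors, 3 cytokines, 5 cytokine receptors, 1 chemokine receptor, 1 cytotoxic gene, 3 immediate early genes and no interferon response gene, and 6 of the regulatory T cell list, as many as edgeR.

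Of 27 genes of the receptor complex and its proximal signalling, 3 chose the barcodes, 3 had no row and 3 were too low to test. Among the 18 tested, 16 rose and 2, Fyn and Lcp2, did not pass. The median difference was 2.26 on the log2 scale, beside -0.10 over all genes tested. Lat differed by 3.07 ± 0.19 (log2, SE; edgeR adjusted p = 1.05e-11) and Lck by 2.75 ± 0.23 (edgeR adjusted p = 2.61e-09). Cd247, the zeta chain of the receptor, was at 164 and 129 CPM against 16.7 and 27.4. The scavenger-type receptors Cd5 and Cd6, which set the threshold of receptor signalling, were at 111 and 107 CPM and at 125 and 164 CPM, and stayed under 10 CPM in the other leukocytes of both libraries. The adaptor Skap1 and the kinases Txk and Zap70 also rose. Themis, a regulator of thymocyte selection, rose by 4.64 ± 0.65 (edgeR adjusted p = 7.24e-06) but rested on 14 members. The same 16 rose without the 48 members that had 3 or more ILC2-gate UMIs.

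**Figure D1:**
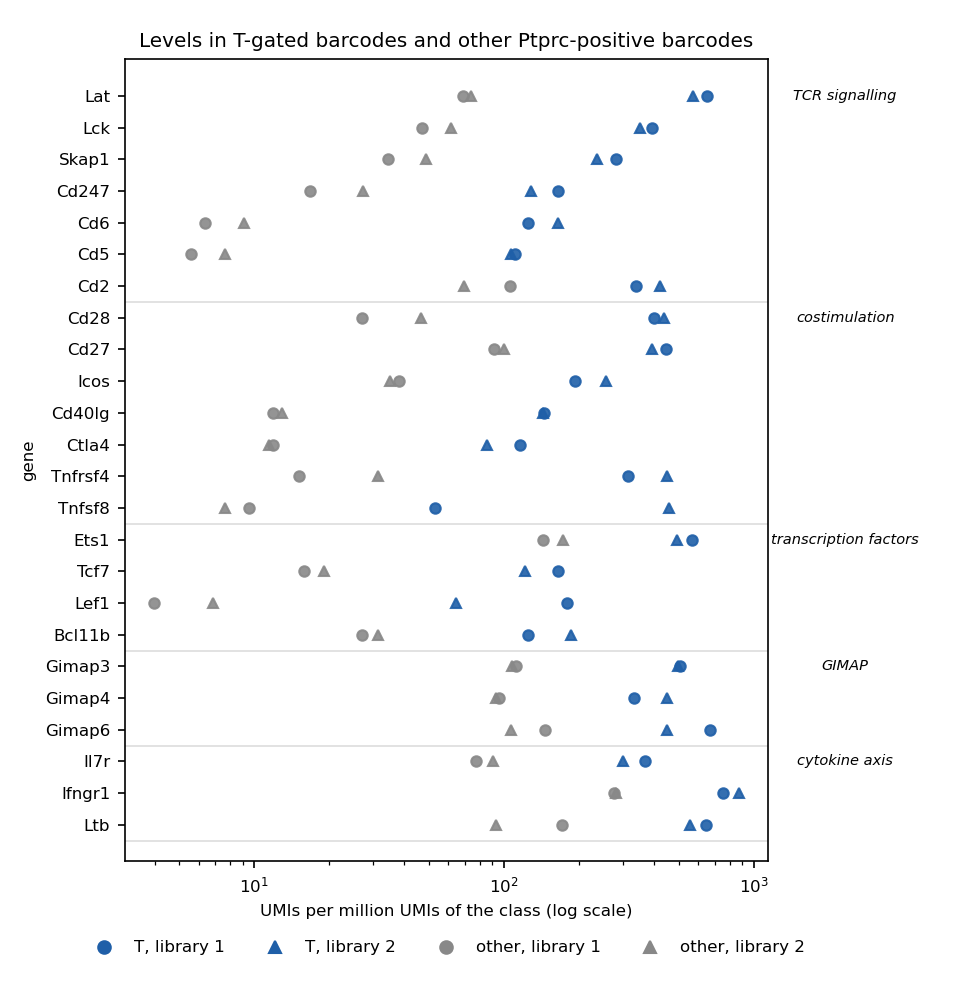
Level in CPM (log axis) for 24 genes, in T-gated barcodes (blue) and other Ptprc-positive barcodes (grey) of library 1 (circles) and library 2 (triangles), 1 point per class and library. All 24 genes were picked from those called higher, and for each both T-gated points lie to the right of both grey points. Tnfsf8 has the widest gap between the T-gated libraries, 53.1 and 457.

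Costimulation followed. Of 16 tested genes of the costimulation and checkpoint list, 13 rose, Cd200 fell, and Cd160 and Cd226 did not pass, with a median of 2.10. Cd28, the receptor for the costimulatory ligands on antigen-presenting cells, was at 400 and 436 CPM in T-gated barcodes and at 27.0 and 46.4 CPM in other leukocytes (log2 difference 3.50 ± 0.24, edgeR adjusted p = 9.95e-11). Cd40lg, the helper ligand that activates B cells and macrophages through CD40, was at 145 and 143 CPM against 11.9 and 12.9. Cd27, Icos and Ctla4 rose by 2.10, 2.56 and 3.07. In each of these 5 genes the classes did not overlap between libraries. That describes genes already called, and the share without overlap over all tested genes was not counted.

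Genes of the tumour necrosis factor (TNF) family on that list also rose. Tnfrsf4 (OX40), a receptor that prolongs T cell survival, was at 313 and 450 CPM against 15.1 and 31.2 (4.02 ± 0.27, edgeR adjusted p = 4.9e-11). Tnfrsf18 (GITR) rose by 2.00 and Tnfrsf9 (4-1BB) by 1.56. In the barcodes left after removal of the 48, Tnfrsf4 differed by 2.75 and Tnfrsf18 by 1.38, and Tnfrsf9 lost its call (0.52, edgeR adjusted p = 0.717). Tnfsf8, the CD30 ligand, had the largest increase among genes that averaged at least 5 on the log2 CPM scale, 4.65 ± 0.47 (edgeR adjusted p = 5.78e-08), but the libraries did not resemble each other: 53.1 CPM in library 1 and 457 in library 2. In library 2, 1 barcode held 32 of its 64 UMIs, and the difference was 2.18 with library 1 alone and 2.76 without the 48 members with ILC2-gate UMIs. Cd200 had no UMI in any member, against 32.6 and 57.1 CPM in the other class, which put it at least 2.25-fold lower by the limit of 3 counts per library.

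Of 18 tested transcription factors of the T lineage, 11 rose and Id3 fell, and 6 did not pass. Tcf7 and Lef1, partner factors of Wnt signalling, rose by 3.01 ± 0.37 and 4.42 ± 0.49 (edgeR adjusted p = 1.09e-06 and 2.29e-07). Lef1 was at 178 CPM in library 1 and 64.3 in library 2, both above the 3.98 and 6.85 of the other leukocytes. Bcl11b, which fixes T cell commitment, was at 125 and 186 CPM against 27.0 and 31.2, and Ets1 at 564 and 493 against 144 and 173. Id3, an inhibitor of E-proteins, fell by 2.90. Without the 48 members with ILC2-gate UMIs the list had 11 higher and 3 lower. Gata3, which helped to pick the 48, is among those lower.

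The GTPases of immunity-associated proteins (GIMAP), a clustered gene family that supports lymphocyte survival, rose in all 8 tested members, by 1.74 to 2.16 with a median of 2.05. Gimap6 was at 666 and 450 CPM against 146 and 107, and Gimap3 at 506 and 500 against 112 and 107. The members resemble each other in sequence, so each value is uncertain to the extent that reads were split among them. All 8 also rose without the 48 members.

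**Figure D2:**
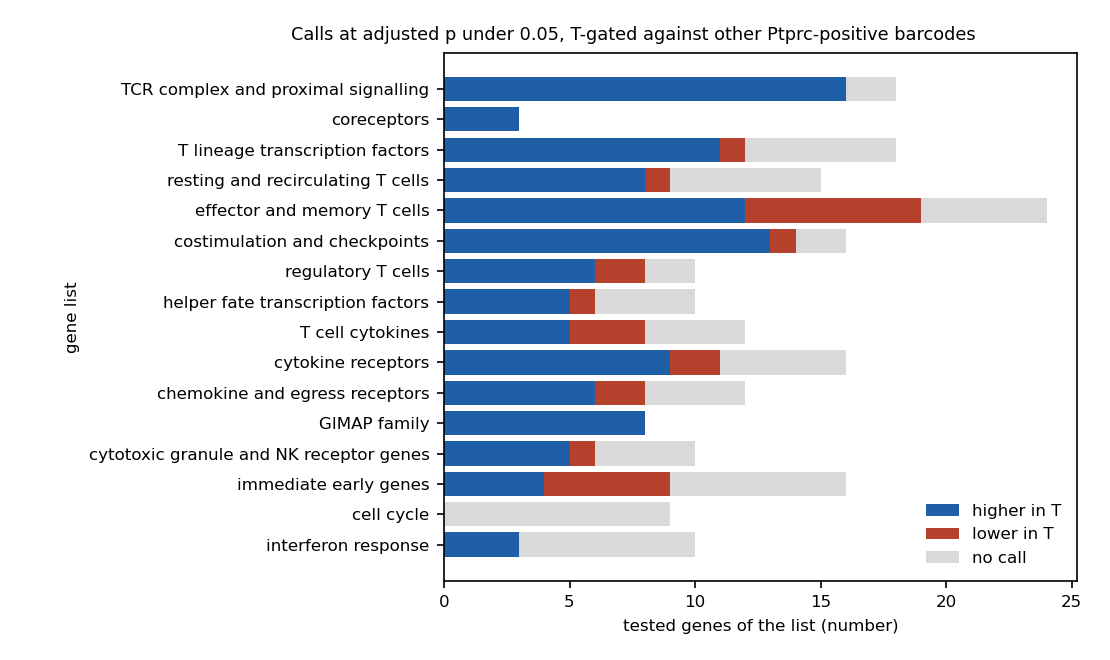
Number of tested genes in each of 16 gene lists that were higher (blue), lower (red) or without a call (grey) in T-gated against other Ptprc-positive barcodes, edgeR adjusted p under 0.05. The receptor signalling list has 16 higher of 18, the GIMAP family 8 of 8, and the effector and memory list 12 higher and 7 lower of 24.

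Genes of resting, recirculating T cells gave 8 higher and 1 lower of 15 tested. Il7r, the receptor for the survival cytokine of resting lymphocytes, was at 367 and 300 CPM against 77.2 and 90.6 (1.98 ± 0.22, edgeR adjusted p = 2.28e-07). The egress receptor S1pr1 rose by 1.48 and the chromatin organiser Satb1 by 1.76, and Igfbp4 fell by 2.33. Ccr7, a receptor that guides cells into lymph nodes, did not pass, at 72.3 and 0 CPM against 77.2 and 84.5. It had a UMI in 13 members, all of library 1. The other leukocytes include the 98 B-gated barcodes, in which Ccr7 was at 193 and 160 CPM.

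Genes of effector and memory T cells moved in both directions, 12 higher and 7 lower of 24 tested, with a median of 0.36. Ccl5, a chemokine of memory and cytotoxic lymphocytes, was at 4577 and 4305 CPM against 1603 and 1967 (1.29 ± 0.16, edgeR adjusted p = 1.85e-06), in 68 members. The tissue-homing receptor Cxcr6 was at 178 and 257 CPM against 58.9 and 69.3, and the receptor Cxcr3 at 19.3 and 85.7 against 8.75 and 4.57. Vim, Ahnak, Anxa1, Anxa2 and Crip1, which many myeloid and stromal cells also express, fell by 0.78 to 1.43. Cd44 fell by 0.58 (edgeR adjusted p = 0.0398). Without the 48 members with ILC2-gate UMIs, 8 of this list were higher and 10 lower.

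Of 10 tested factors of helper fates 5 rose and 1 fell, against 3 higher and 3 lower once the 48 members with ILC2-gate UMIs were left out. Tbx21, the factor of type 1 helper cells, was at 43.4 and 64.3 CPM against 13.5 and 9.90, and Stat4, which transmits type 1 signals, at 121 and 143 against 41.4 and 45.7. Maf, Gata3 and Rora also rose. Without the 48, Gata3 was lower (-1.04) and Rora was not called (0.31). Both helped to pick the 48, so their part in the shift of the list follows from the removal. Ahr, a sensor of aromatic ligands, fell by 1.91. Of the cytotoxic and NK receptor list 6 genes chose the barcodes and 10 were tested. Nkg7, Ccl5, Klrg1, Ctsw and Fasl rose and Klrc1 fell. Fasl, the ligand of the death receptor Fas, was at 53.1 and 78.5 CPM against 18.3 and 14.5.

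Among T cell cytokines, 5 of 12 tested rose and 3 fell; leaving out the 48 members gave 4 higher and 5 lower of 10. Ltb, a lymphotoxin subunit that organises lymphoid tissue, was at 641 and 557 CPM against 170 and 92.9, and Ifng, the type 1 effector cytokine, at 53.1 and 42.8 against 5.57 and 0.761, in 12 members. Il5 and Il13 rose by 2.53 and 2.16 (Il5 by 1.56 in library 1 and 3.49 in library 2). No UMI of either gene lay outside the 48 members. Both genes helped to pick the 48, and Il5 is among the 5 lower without them. Ccl3, Ccl4 and Tnf, made in large amounts by myeloid cells, fell by 5.55, 4.01 and 2.57. Among cytokine receptors, 9 rose and 2 fell of 16 tested. Ifngr1, a chain of the interferon-gamma receptor, was at 752 and 871 CPM against 277 and 280, Il21r rose by 2.17 and the common gamma chain Il2rg by 1.01, and Il6ra and Il6st both fell by 1.79.

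Of 12 tested chemokine and egress receptors, 6 rose and 2 fell. Ccr4 rose by 3.02 but was seen in 7 members, Ccr9, the receptor for homing to the small intestine, rose by 2.40 in 5 members, and S1pr4 rose by 1.59. Ccr1, a receptor for inflammatory chemokines, fell by 2.13.

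The 16 tested immediate early genes, which respond to stimulation and also to tissue digestion, split into 4 higher and 5 lower. Cd69 (1.99), Junb (0.89), Btg2 (0.81) and Ier2 (0.53) rose, and Egr1, Zfp36, Atf3, Fos and Fosb fell by 2.31, 1.64, 1.08, 0.84 and 0.57. The split moved both ways with the barcodes used: 2 were higher and 8 lower without the 48, 7 higher and 5 lower without the Cd74-rich member, and 3 higher and 8 lower with 3 or more CD3 UMIs required. Heat-shock transcripts of Hspa1a stood at 313 CPM in library 1 and 21.4 in library 2, and 63 of the 65 UMIs of library 1 were in 1 barcode. None of 9 tested cell cycle genes passed in edgeR's test (1 had an unadjusted p under 0.05) or in DESeq2's. Mki67 had UMIs in 3 members and Top2a in 7. Of 10 interferon response genes, Igtp, Isg15 and Ifi27l2a rose, by 2.01, 1.25 and 0.57, and Igtp alone was still higher, with Ly6a lower, once the 48 were left out. Ifi27l2a reached 892 CPM in library 2 with 81 of 125 UMIs in 2 barcodes, and its difference was -0.11 with library 1 alone.

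The 10 genes that were lowest in T-gated barcodes had no UMI in any member. Lyz1 (1088 and 755 CPM in the other leukocytes), a lysozyme of myeloid cells, was at least 35.3-fold lower. The myeloid genes Spi1, Ccl24, Grn, Fcgr3 and Mrc1 and the fibroblast collagen Col1a2 were at least 12.3-, 11.1-, 9.88-, 7.86-, 7.71- and 17.1-fold lower by the same limit. Those genes mark the macrophages and stromal barcodes that the Ptprc-positive class holds. Members were required to be low in Dcn and C1qa, and the other class was not.

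Faah, Rnf125 and Ramp3, which are on none of the gene lists, and Ikzf2, which is on that of regulatory T cells, also rose. Faah, the hydrolase of the endocannabinoid anandamide, was at 125 and 186 CPM against 12.7 and 22.1 (3.12 ± 0.36, edgeR adjusted p = 3.74e-07), with UMIs in 39 members. Rnf125, a ubiquitin ligase known from T cell activation, was at 145 and 129 CPM against 13.5 and 27.4, with UMIs in 40 members. Ikzf2 (Helios) was at 232 and 528 CPM against 23.1 and 79.2 (2.91 ± 0.24, edgeR adjusted p = 2.2e-09). Ramp3, a subunit of receptors for adrenomedullin and related peptides, had 217 UMIs in 82 members, no more than 10 in 1 barcode, and stood at 550 and 735 CPM against 188 and 147 (1.89 ± 0.18, edgeR adjusted p = 2.2e-08).

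Coreceptor transcripts were sparse. Cd4 had a UMI in 29 members (13 in library 1 and 16 in library 2) and Cd8a or Cd8b1 in 21 (17 and 4). No member had UMIs of both lineages, and 124 had neither. With each barcode thinned to 1000 UMIs, Cd4 was found in 9.80% of 102 members (95% exact interval 4.80 to 17.3) and 14.5% of 69 (7.17 to 25.0), and Cd8a or Cd8b1 in 10.8% (5.51 to 18.5) and 5.80% (1.60 to 14.2). Unthinned shares were 12.7% and 22.2% for Cd4 and 16.7% and 5.56% for Cd8a or Cd8b1. B-gated barcodes should lack these genes and had a median of 2169 UMIs. Without thinning, no UMI of Cd4, Cd8a or Cd8b1 was seen in the 62 and 36 B-gated barcodes. A limit of 3 barcodes allows shares of up to 4.84% and 8.33% there. Thinning left out 3 members of library 2, and a barcode without a UMI is not shown to lack the gene.

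All 3 coreceptor genes rose against the other leukocytes in edgeR's test, and Cd4 alone in DESeq2's. Cd4 was at 72.3 and 136 CPM against 6.36 and 7.61 (3.80 ± 0.46, edgeR adjusted p = 8.34e-07) and Cd8a at 86.8 and 28.6 against 7.95 and 4.57. Cd8b1 was at 183 and 14.3 CPM against 0.795 and 14.5. It was higher only in library 1, and with library 2 alone its difference was -0.06.

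Members with a Cd4 UMI and those with a Cd8a or Cd8b1 UMI were compared over 383 testable genes, without the coreceptors. Ccl5 was at 2863 and 2770 CPM in the Cd4 set and at 9822 and 28154 in the Cd8 set. Nkg7, a cytotoxic granule protein, was at 303 and 238 CPM against 575 and 2462, and Ly6c2, a surface protein of memory CD8 cells, at 168 and 0 against 479 and 2308. The Cd4 set was higher for Jund, Junb, S100a4, S100a11 and Sh3bgrl3; Jund stood at 1886 and 2383 CPM against 599 and 462. The Cd8 set of library 2 was 4 barcodes with 6500 UMIs.

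Those 8 genes, 5 higher (1.31%) and 3 lower (0.783%) in the Cd4 set, were 2.09% of those tested in edgeR's test. Ccl5 fell by 2.57 ± 0.27 (edgeR adjusted p = 4.84e-17), with adjusted p from 6.51e-15 to 0.99 over the alternatives. Without the single member rich in Cd74, which had 1 Cd4 UMI, edgeR called none of 347 genes (42 at an unadjusted p under 0.05), and DESeq2's test on the full sets called Ccl5 alone. Both libraries kept the direction for all 8 genes when taken alone, and Ccl5 then differed by -1.81 in library 1 and -3.30 in library 2.

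**Figure D3:**
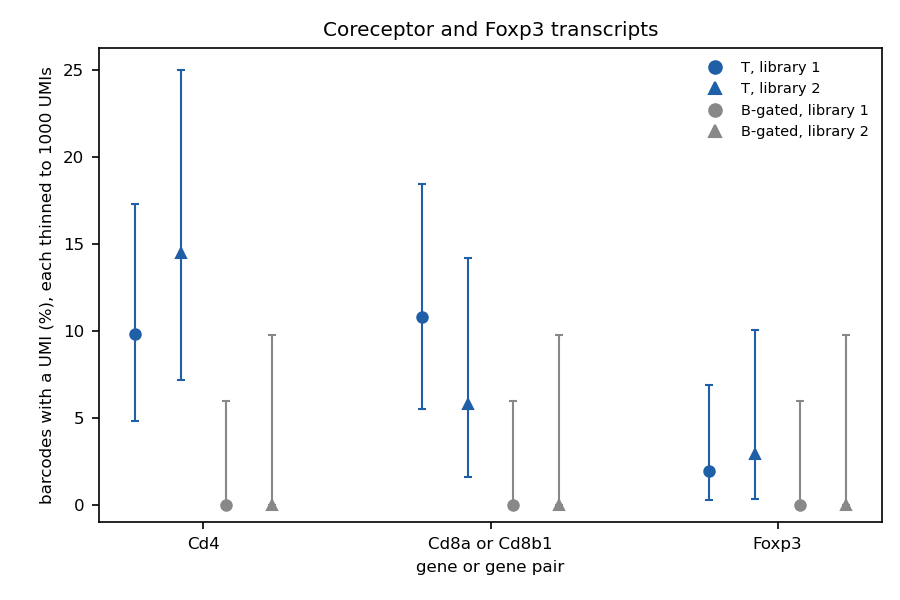
Percent of barcodes with at least 1 UMI after each barcode was thinned to 1000 UMIs, for T-gated (blue) and B-gated (grey) barcodes of library 1 (circles) and library 2 (triangles); bars are 95% exact binomial intervals. Cd4, Cd8a, Cd8b1 and Foxp3 transcripts were at 0 in the B-gated barcodes of both libraries.

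**Figure D4:**
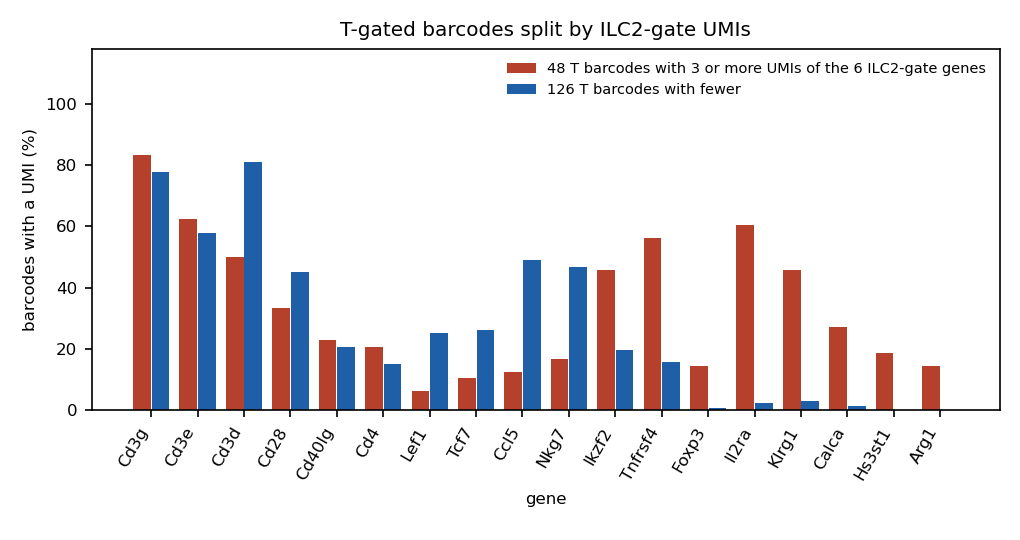
Percent of barcodes with a UMI of each gene among the 48 T-gated barcodes with 3 or more UMIs in sum of Gata3, Il1rl1, Rora, Il5, Il13 and Areg (red) and the 126 with fewer (blue); none of the genes drawn is among those 6. Cd3g, Cd4 and Cd40lg were found at like shares in both sets, though the rule had required CD3 UMIs of every member. Lef1, Tcf7, Ccl5 and Nkg7 were found mostly in the 126, and Il2ra, Klrg1, Calca, Hs3st1 and Arg1 mostly or only in the 48.

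The 48 members with 3 or more ILC2-gate UMIs were picked on those genes, so their levels are a description. Gata3 stood at 1425 and 1347 CPM in the 48 and at 2078 and 1374 CPM in the 58 ILC2-gated barcodes, which by their definition had no CD3 UMI. The rule required at least 2 CD3 UMIs of every member, so CD3 levels in the 48 and in the others are set in part by it. Cd3e was at 458 and 410 CPM in the 48 against 485 and 507 in the other members, and Cd3g at 831 and 937 against 687 and 867. Cd3d was at 390 and 429 CPM against 863 and 721. A Cd28 UMI was found in 16 of the 48, a Cd40lg UMI in 11 and a Cd4 UMI in 10, so T cell transcripts outside the rule were present in part of them.

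Genes outside those 6 also followed the split. Il2ra, the high-affinity interleukin-2 receptor chain, had a UMI in 29 of the 48 and in 3 of the other 126 members, and Klrg1 in 22 and 4. Hs3st1 and Arg1, both enriched in ILC2, were found in 9 and 7 members, all among the 48. Calca, which encodes the neuropeptide CGRP, had 76 UMIs in 15 members, 13 of them among the 48. Ccl5 and Nkg7 had UMIs in 6 and 8 of the 48 but in 62 and 59 of the 126.

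Il5, the cytokine that sustains eosinophils, had 104 UMIs in 11 members, 5 in library 1 and 6 in library 2. The 2 richest barcodes held 42 of them. All 11 had a Gata3 UMI, 9 had Il1rl1 (the receptor for Il33), 5 had Cd40lg and 3 had Cd4. Cd3g was seen in 10 of the 11, but Cd3e in 4 and Cd3d in 4. Il4, the other cytokine that marks type 2 helper cells, had 7 UMIs in 5 members, 2 of them among the 48.

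Without the 48 members, Gata3 went from 1.83 to -1.04 against the other leukocytes, and Il5 and Il1rl1, both then at 0, also changed sign. These genes helped to pick the barcodes that were removed, so a fall was built into the removal and is a description. Il2ra and Klrg1, which did not choose barcodes, went from 1.87 and 1.80 to -1.11 and -0.38, neither past the threshold (edgeR adjusted p = 0.255 and 0.803). The total of calls was 1451, of which 1290 were shared with the 1679. Cd28, Cd40lg, Lef1, Lat, Lck and the GIMAP genes kept their calls, and among the genes given above Rora, Tnfrsf9, Il2rg, Il6ra, Klrc1, Junb, Ier2, Isg15 and Ifi27l2a lost theirs, while Il13, Ccr4 and Ccr9 were too low to test. Some called values moved by over 1.5 times: Ikzf2 to 2.01, Ctla4 to 2.36, Cxcr6 to 1.07, Vim to -1.71, Crip1 to -1.62, Anxa1 to -3.70, Capg to -2.40, Tnf to -3.25, Ccr1 to -3.59, Atf3 to -2.17 and Fosb to -1.17. Whether the 48 barcodes are T cells, ILC2 with CD3 transcripts or pairs of cells was not tested.

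Foxp3, the factor that defines regulatory T cells, had UMIs in 8 members, 4 per library, and in none of 62 and 36 B-gated barcodes, which allows up to 4.84% and 8.33% there. Those 2 limits are of 3 barcodes, without thinning. At 1000 UMIs per barcode the T-gated shares were 1.96% (0.238 to 6.90) and 2.90% (0.353 to 10.1). With the same thinning no UMI was seen in 60 and 36 B-gated barcodes, with exact upper limits of 5.96% and 9.74%. Both T-gated shares lie within these limits. All 8 had a UMI of Tnfrsf4, 7 of Ikzf2, 5 each of Ctla4 and Il2ra, 5 of Gata3, 4 of Il1rl1 and 3 each of Areg and Il10. Il5 and Calca had none. Of the 8, 7 were among the 48 members with ILC2-gate UMIs; Gata3, Il1rl1 and Areg are known from regulatory T cells of adipose tissue as well as from ILC2. A comparison with the other members was not run, since it was set to need 10 barcodes per library.

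Of 10 tested genes of the regulatory T cell list, 6 rose against the other leukocytes. Tnfrsf4, Ikzf2, Ctla4, Tnfrsf18, Il2ra and Izumo1r were those 6, and Capg and Nrp1 fell by 1.60 and 1.80. Ikzf2 had UMIs in 47 members and Foxp3 in 7 of these, so most barcodes with a Helios transcript had no Foxp3 UMI at this depth. Izumo1r was at 53.1 and 71.4 CPM against 3.18 and 4.57, in 14 members, 1 with Foxp3.

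**Figure D5:**
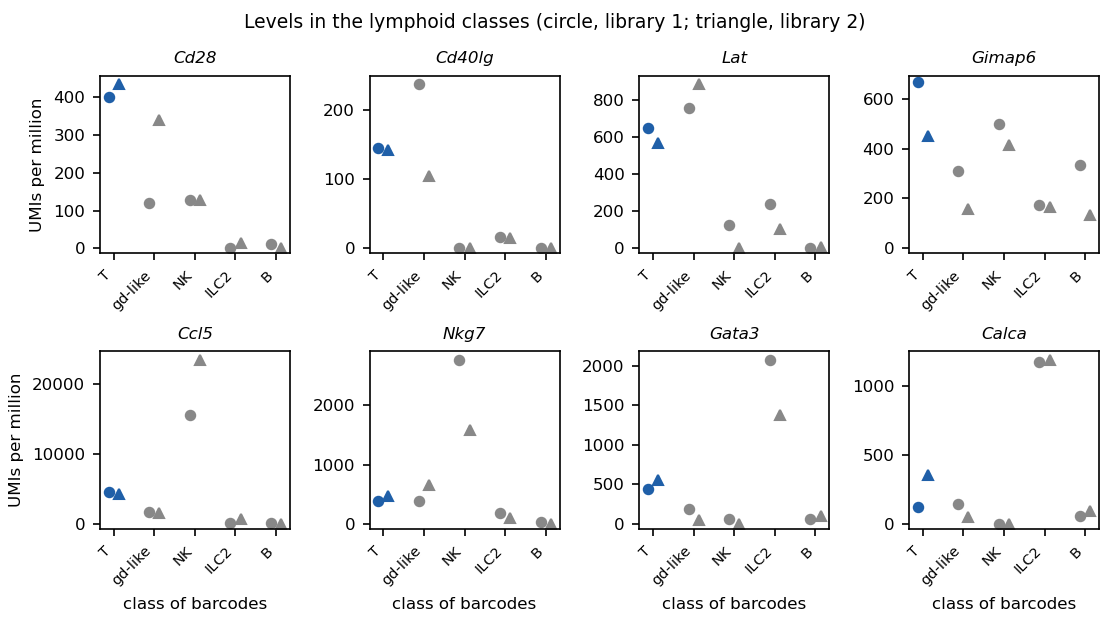
Level in CPM (linear axes, 1 scale per gene) for 8 genes in T-gated, gamma-delta-like (gd-like), NK-gated, ILC2-gated and B-gated barcodes, 1 point per library (circles, library 1; triangles, library 2). Cd28 and Cd40lg are near 0 in ILC2-gated and B-gated barcodes, Ccl5 and Nkg7 are highest in NK-gated barcodes, and Gata3 and Calca in ILC2-gated barcodes.

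Few genes were called against the gamma-delta-like class of 39 barcodes (19 and 20). These had 2 or more CD3 UMIs and at least 1 UMI of Cd163l1, Actn2 or 5430421N21Rik. They also had a Ptprc UMI, no UMI of Cd79a or Cd79b, and at most 2 UMIs each of Dcn and C1qa. A Ptprc UMI was required of this class and of the NK-gated and ILC2-gated classes, but not of the members. Only Cxcl10, Tmem176a and Tmem176b were called among 1947 genes (0.154%), all lower in T-gated barcodes. Tmem176a was at 135 and 71.4 CPM against 761 and 812 (fell by 2.83 ± 0.42, edgeR adjusted p = 0.0122), and Cxcl10, an interferon-induced chemokine, at 38.6 and 21.4 against 809 and 393. Without a call were Cd28, at 400 and 436 CPM against 119 and 340, Cd40lg, at 145 and 143 against 238 and 105, and Icos, at 193 and 257 against 476 and 576. No gene was higher in T-gated barcodes in edgeR's test, with 167 genes at an unadjusted p under 0.05 in either direction; DESeq2 called 9, all lower, and edgeR without the filter on low counts called 78, of which 72 were higher. Leaving out the 48 members gave 5 calls, with Cxcl10 at -4.98 and Tmem176a at -3.44. The gamma-delta-like sums were 42027 and 38199 UMIs, beside 62226 and 38789 in the NK-gated class treated next. Whether depth set the number of calls was not tested.

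The NK-gated class had 48 barcodes (31 and 17) with 3 or more NK-gene UMIs and at most 1 CD3 UMI. They also had a Ptprc UMI and no UMI of Cd79a or Cd79b. Against this class 42 genes were higher (2.16%) and 38 lower (1.95%) of 1947 tested, 4.11% in all. Lat was at 651 and 571 CPM against 129 and 0 (3.08 ± 0.60, edgeR adjusted p = 0.0136), Il7r at 367 and 300 against 48.2 and 0, and Ramp3, at 550 and 735, had no UMI in the NK-gated class and was at least 9.51-fold higher. Cxcr6 was at least 3.32-fold higher by the same limit of 3 counts per library. Of 7 tested cytotoxic and NK receptor genes outside the rule, 6 fell: Ccl5, Nkg7, Gzmb, Klrk1, Klrc1 and Ctsw. Ccl5 was at 4577 and 4305 CPM against 15653 and 23512. Tyrobp and Fcer1g, adaptors of NK receptors, were at 48.2 and 42.8 against 2571 and 2578 CPM and at 116 and 129 against 2330 and 1702. All 7 GIMAP genes tested were without a call. Without the 48 members with ILC2-gate UMIs 50 genes were called and 18 of 37 named calls were lost. Among those lost were Cd40lg, Cd6, Tnfrsf4, Gata3, Il5, Ccl5, Gzmb and Klrk1, and Ctsw also lost its call. Gata3 and Il5 helped to pick the 48.

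The ILC2-gated class had 58 barcodes (31 and 27) with no CD3 UMI and 3 or more ILC2-gate UMIs. They also had a Ptprc UMI, under 3 NK-gene UMIs, no UMI of Cd79a or Cd79b, and at most 2 UMIs each of Dcn and C1qa. Of 1942 genes tested, 37 were higher (1.91%) and 91 lower (4.69%) in T-gated barcodes, 6.59% in all. Of 13 tested receptor signalling genes 6 rose, 1 fell and 6 were without a call. Among those that rose, Lck was at 391 and 350 CPM against 0 and 44.8 (4.02 ± 0.63, edgeR adjusted p = 0.00476) and Cd2 at 338 and 421 against 15.9 and 0. Of 9 tested costimulation genes 2 rose. Cd28, 1 of these, was at 400 and 436 CPM against 0 and 14.9 (5.72 ± 0.78, edgeR adjusted p = 0.00232). Cd247, Cd7, Il21r and Ctla4 had no UMI in the ILC2-gated class and were at least 2.87-, 2.84-, 2.84- and 1.91-fold higher. Of 7 tested GIMAP genes 3 rose (Gimap4, Gimap6 and Gimap7), and Ccl5 was at 4577 and 4305 CPM against 174 and 672.

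On the other side, Csf2, a growth factor for myeloid cells, was at 67.5 and 64.3 CPM in T-gated and 1332 and 1717 in ILC2-gated barcodes (fell by 4.49 ± 0.37, edgeR adjusted p = 0.000245). Hes1, a Notch target, was at 9.65 and 42.8 CPM against 2173 and 567, Id2 at 617 and 643 against 2284 and 1807, and Ccr2 at 169 and 221 against 492 and 702. Ramp3 did not separate these classes: 550 and 735 CPM against 1063 and 762 (edgeR adjusted p = 0.396). Slc7a11, Ccl24 and Lyz2 were called lower but were high in library 2 of the ILC2-gated class alone; Ccl24 stood there at 15.9 and 493 CPM. Without the 48 members 212 genes were called, Csf2 differed by -7.34 and Id2 by -3.17, and Ctla4 was too low to test.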

How the data were processed

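Droplet libraries of whole mesentery from 2 mice were analysed as 1 group. The authors deposited a matrix of raw UMI counts per gene and barcode; per the submitters' processing notes it was made with Cell Ranger on mm10 (release not given in the sources used here). The 2 libraries were told apart by the number at the end of each barcode, matched to the mouse number in the labels. The members and gene lists were chosen with earlier results of these data known. Deposited counts were summed per class and library and given as CPM (a class total of 1000000). Sums were tested with edgeR 4.0.16 (R 4.3.3; quasi-likelihood test, TMM scaling, filterByExpr, library as block because both classes come from the same 2 mice), with p-values adjusted over all genes tested; the genes that define the classes were left out. DESeq2 1.42.0, other filters, other thresholds, Scrublet (scanpy 1.11.5; 39 and 4 doublets called, left in as the rule has no such filter) and omission of doubtful barcodes were alternatives. The fit was tested on simulated data. Shares have 95% Clopper-Pearson intervals, from barcodes thinned to 1000 UMIs. Libraries held 5137671 and 5563521 UMIs, and T-gated sums of 207338 and 140057 UMIs make 3 counts 14.5 and 21.4 CPM. Named genes were the 10 largest calls in each direction with an average of at least 5 log2 CPM and the same direction in both libraries, up to 5 called per list and direction, the genes of the barcode rule, and Cd28, Cd40lg, Lef1, Cd4, Cd8a, Cd8b1 and Foxp3; others are named with their values because a result turns on them. Gene positions are from GENCODE M21 and promoter windows from RefSeq, matched by symbol for 3 of 3 CD3 genes. Of 239 listed genes 4 have no row of their own. Some results that were computed are not reported here.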

Additional observations from a re-analysis of the deposited data

How the results depend on the processing

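Calls rest on 2 libraries, few barcodes per class and sums of 6500 to 1313245 UMIs, so weakly expressed genes had little chance of a call. With each library left out no spread remains, and fold changes were computed with no test; the share of T-gated barcodes among leukocytes (19.5% as the mean of the libraries) then ranged from 16.4% to 22.6%. It was 13.8% with 3 or more CD3 UMIs and 25.7% with 1 or more. Among the genes named, the log2 difference of Cd8b1 against other leukocytes was -0.065 without replicate 1 and 5.71 without replicate 2, and that of Ifi27l2a 1.13 and -0.11; the cause was not tested.

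Against other leukocytes DESeq2's Wald test called 335 genes in place of 1679. The gamma-delta-like comparison gave 9 calls with that test, 78 without the filter on low counts (72 higher) and 5 without the 48 members with ILC2-gate UMIs, in place of 3. The NK comparison gave 264 without the filter, 131 without doublets, and 50 each with barcodes of 500 genes and no more than 5% mitochondrial UMIs, with 3 or more CD3 UMIs and without the 48, in place of 80; with DESeq2's size factors 25 were higher and 35 lower. The ILC2 comparison gave 212 without the 48, in place of 128. Leaving out the 48, and leaving out the Cd74-rich member, were chosen after the data were seen. Without the 48, log2 differences against other leukocytes turned for Gata3 (-1.04), Il5 (-8.31), Il1rl1 (-8.32), Il2ra (-1.11) and Klrg1 (-0.38). Gata3, Il5 and Il1rl1 helped to pick the 48.

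The Cd4 against Cd8 comparison gave 8 calls, but 0 in edgeR with DESeq2's size factors (63 genes at an unadjusted p under 0.05), without the filter (53), with the stricter barcode limits (27), without doublets (42), without the 48 (24) and without the Cd74-rich member (42); DESeq2's Wald test gave 1, and 3 or more CD3 UMIs gave 13. The fit had the replicate block; with no replicate block it gave 19 calls for Cd4 against Cd8 and moved no other count by over 1.5 times.

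Shares moved with the thinning depth, as means of the libraries. Cd4 was 12.1% at 1000 UMIs, 5.64% at 500, 18.0% at 2000 and 17.5% unthinned. Only 33 and 26 members reached 2000 UMIs, so the barcodes differ there as well as the depth. At that depth Cd4 was 9.09% in library 1 and 26.9% in library 2. Cd8a or Cd8b1 was 8.29%, then 4.13% at 500 and 15.6% at 2000. Foxp3 was 2.43%, then 3.44% at 2000 and 4.74% unthinned. The comparison of Foxp3 members was not run under any setting.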
